A study of Rattus norvegicus with 18 samples.

Results

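This account covers 113 rat transcripts whose mean level was higher with carbon tetrachloride, TCDD and trichloroethylene than in vehicle-treated hepatocytes, and lower with acetaminophen. They were picked from 30897 transcripts by group means of TPM (transcripts-per-million), which are estimated counts per effective length scaled to the same sum in each library. A transcript was taken when its Control mean was 2 TPM or more, its mean was at least 25% above Control with each of the 3 pollutants, its APAP ratio was 0.75 or less, and its highest APAP library lay below its lowest Control library. Of the 12808 transcripts with a Control mean of 2 TPM or more, 413 were at least 25% above Control with all 3 pollutants. The APAP ratio was 0.75 or less for 162 of these, at least 25% above Control for 106 and in between for 145, and 113 of the 162 also had no overlap between APAP and Control.

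The cells were primary rat hepatocytes, the parenchymal cells of the liver kept in culture after isolation, exposed for 6 h in medium with 0.1% DMSO. The groups were Control (0.1% DMSO alone, 3 libraries), APAP (acetaminophen at 3 mM, 4 libraries), CCl4 (carbon tetrachloride, dose not given in the sources used here, 3 libraries), TCDD (2,3,7,8-tetrachlorodibenzo-p-dioxin at 1 nM, 4 libraries) and TCE (trichloroethylene at 1 mM, 4 libraries). All groups, Control included, carried the solvent. The labels give no strain, sex or age and do not say whether replicates were separate animals or cultures, and p-values therefore cover only the spread among libraries as sequenced, which may be technical. The doses were not matched between compounds.

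As background, acetaminophen, carbon tetrachloride and trichloroethylene are all turned into reactive products by liver cytochromes P450, and acetaminophen's product is normally removed by binding to glutathione. TCDD instead binds the aryl hydrocarbon receptor, a transcription factor that switches on enzymes of foreign-compound metabolism. Hepatocytes carry out most of this metabolism in the liver and lose part of it in culture. The transcripts are given here by identifier, because the deposited tables carry no gene names and 0 of the 30897 identifiers matched the rat RefSeq gene table. For the same reason the hepatocyte label was not checked against marker genes, and no function or sequence is given for any member.

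Total estimated counts were 9280367 to 11479466 in 17 libraries, with 19151 to 19801 transcripts above 0 in each. TCDD replicate 1 stood apart with 6563387 estimated counts and 27416 transcripts above 0. It was not used to choose the members and is described separately. Since the values chose the members, ratios to Control are given as a description with no test.

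The members were mostly moderate in level. Their Control means ran from 2.38 to 594 TPM with a median of 11.5 TPM, against 13.7 TPM over the 12808 transcripts. In estimated counts, the Control mean of a member ran from 7.15 to 2744 with a median of 118, and 8 members had fewer than 20. Together the 113 members held 0.255% ± 0.0208 of all counts in Control (SD, n = 3), 0.371% ± 0.00396 with CCl4 (SD, n = 3), 0.366% ± 0.0151 in TCDD replicates 2 to 4 (SD, n = 3), 0.365% ± 0.00816 with TCE (SD, n = 4) and 0.142% ± 0.00135 with APAP (SD, n = 4). In these bulk samples fewer cells of a type and less RNA per cell cannot be told apart.

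**Figure D1:**
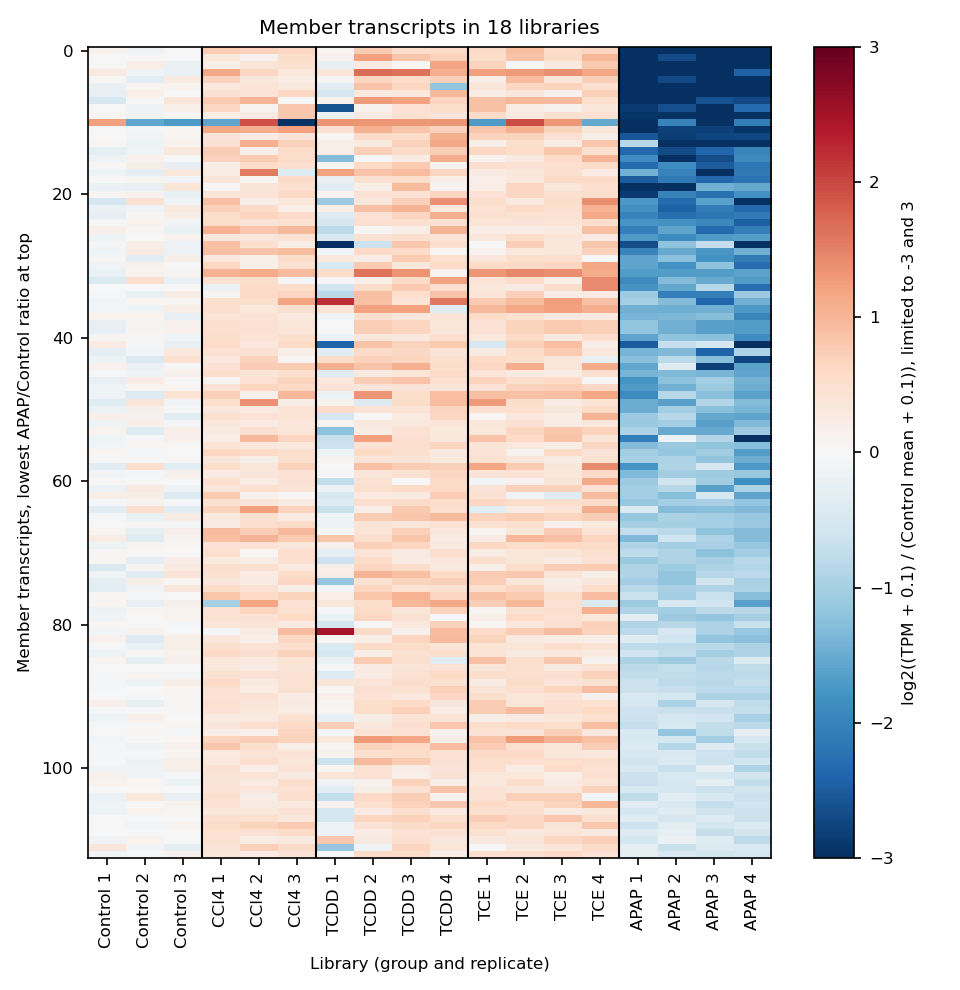
Each row is 1 of the 113 member transcripts, ordered by APAP ratio, and each column 1 of the 18 libraries; colour gives log2 of (TPM + 0.1) over (Control mean + 0.1), limited to -3 and 3. The CCl4 and TCE columns and TCDD replicates 2 to 4 are mostly above Control, the APAP columns are below it, and TCDD replicate 1 is mixed.

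The excess over Control was modest with the 3 pollutants and the deficit with APAP was wide in range. Over the members the median TPM ratio to Control was 1.36 with CCl4, 1.44 with TCDD and 1.42 with TCE, with highest values of 2.23, 2.85 and 2.51. A ratio of 1.5 or more was reached by 22 members with CCl4, 42 with TCDD and 40 with TCE, and by 12 members with all 3 compounds. With APAP the ratio ran from 0.0300 to 0.737 with a median of 0.428. It was 0.25 or less for 26 members, between 0.25 and 0.5 for 44, and above 0.5 for 43. With the pollutants a ratio of 2 or more was reached by 2 members with CCl4, 5 with TCDD and 4 with TCE. The 4 comparisons share the same 3 Control libraries. The members nearest the limits had a smallest pollutant ratio of 1.2506, an APAP ratio of 0.737 and a Control mean of 2.38 TPM. The transcripts nearest outside had 1.2497, 0.756 and 1.92 TPM.

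The 3 pollutant groups overlapped with Control in a part of the members. All CCl4 libraries lay above all Control libraries for 86 of the 113 members, against 9.72% of the 12808 transcripts. The counts were 89 for TCDD replicates 2 to 4, against 21.6%, and 79 for TCE, against 20.5%. For 64 members all libraries of the 3 pollutants lay above all Control libraries, against 5.07%. All APAP libraries lay below all Control libraries for every member by the rule, which also held for 51.9% of the 12808 transcripts. The rule used these same values, and nothing is read from the counts. Within groups, the median coefficient of variation of a member was 11.0% in Control, 8.82% with CCl4, 12.8% in TCDD replicates 2 to 4, 13.5% with TCE and 17.9% with APAP.

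The scale decided much of what counted as lower with APAP. Over all 12808 transcripts, the median APAP ratio was 0.702 on the TPM scale, below the limit of 0.75 itself. It was 0.999 on the counts-per-million scale (CPM) with TMM factors, which set the bulk of transcripts level between libraries. The shift of the median of all transcripts was -0.51 on the log2 scale in TPM and 0.00 with TMM for APAP, -0.10 and -0.03 for CCl4, 0.08 and -0.04 for TCDD, and 0.08 and -0.05 for TCE. Relative to the median of all transcripts, the members' median stood at 1.46 for CCl4, 1.36 for TCDD, 1.34 for TCE and 0.609 for APAP in TPM. With TMM these relative values were 1.46, 1.36, 1.33 and 0.607. Dividing by the median of all transcripts takes out most of a scaling between libraries, so this match was set in advance. The rule also used these ratios, and nothing is read from the match.

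On the TMM scale itself the members' median ratio to Control was 1.43 for CCl4, 1.32 for TCDD, 1.28 for TCE and 0.607 for APAP. The 3 pollutant ratios were above 1 for all 113 members on this scale, while the APAP ratio was above 1 for 6 of them. The rule asked for means at least 25% above Control in TPM, and the scales differ little for the pollutants. Pollutant ratios above 1 thus follow from the choice, and nothing is read from them. The APAP libraries overlapped with Control for 42 members. The matching share of the 12808 transcripts on this scale is not given here, so nothing is read from that count. The APAP ratio was above the limit of 0.75 for 36 members. A mean less than 25% above Control was found for 35 members with TCDD, 46 with TCE and 0 with CCl4. The members' median CCl4 ratio was higher with TMM than in TPM, 1.43 against 1.36, so the choice made this 0 likely. Applied to TMM values the rule picked 44 transcripts, and 30 of these were among the 113. Those 30 had a median APAP ratio of 0.321 in TPM and 0.458 with TMM, and met the rule also in CPM scaled to total counts. Their median pollutant ratios with TMM were 1.43 for CCl4, 1.46 for TCDD and 1.44 for TCE. These 30 were chosen by the same limits on 2 scales of the same values. Their medians therefore follow from the choice and are a description only. For APAP, total counts lie between the 2 scales, with a median of 0.761 over all transcripts, so meeting the rule there is no separate support.

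**Figure D2:**
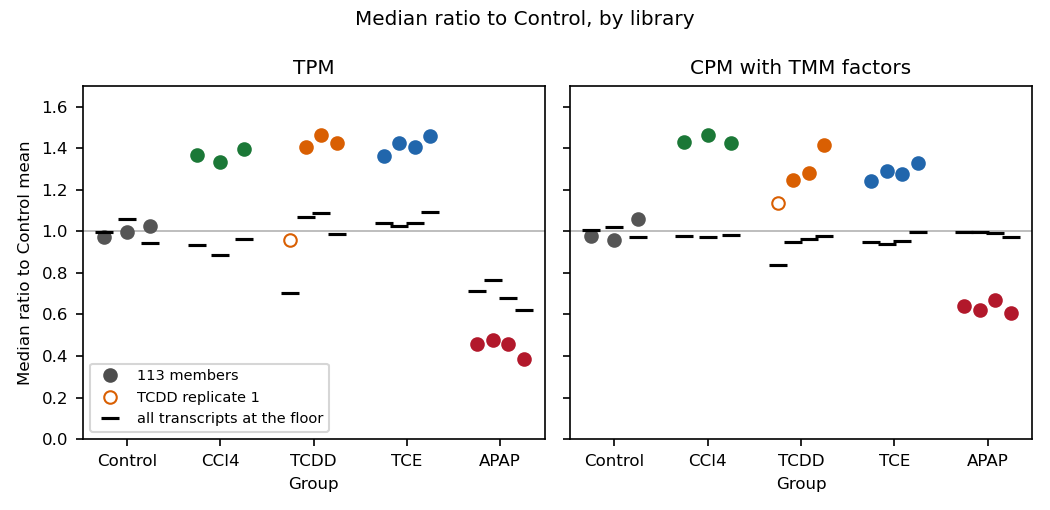
Points give the median ratio to the Control mean over the 113 members in each library, and dashes the median over the 12808 transcripts with a Control mean of 2 TPM or more; TPM is on the left and CPM with TMM factors on the right, and the open point is TCDD replicate 1. The APAP libraries have member medians of 0.383 to 0.479 in TPM and 0.605 to 0.669 with TMM, below the dashes on both scales.

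The order of the pollutants also depended on the scale. In TPM the highest of the 3 means was that of CCl4 for 25 members, TCDD for 47 and TCE for 41. With TMM it was CCl4 for 74, TCDD for 22 and TCE for 17. By library, the member median was 1.33 to 1.40 with CCl4, 1.41 to 1.46 in TCDD replicates 2 to 4 and 1.36 to 1.46 with TCE in TPM, so that the 3 groups lay close together. With TMM it was 1.43 to 1.46 with CCl4, 1.248 to 1.42 in TCDD replicates 2 to 4 and 1.24 to 1.33 with TCE.

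The library left out of the choice gave a mixed picture. In TCDD replicate 1 the members' median TPM ratio to Control was 0.957, against 1.41 to 1.46 in TCDD replicates 2 to 4. It lay above all Control libraries for 31 members, against 12.9% of the 12808 transcripts, and below all of them for 51, against 70.9%. Over all 12808 transcripts its median ratio was 0.705, so that the members stood at 1.36 relative to that median. With TMM the members' median ratio was 1.14 and that of all transcripts 0.840. On that scale 57 members lay above all Control libraries, against 23.8%, and 29 below all of them, against 55%. This library is compared with the same Control libraries that chose the members, so its values are not an independent repeat of the Control side.

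By class of length, the members' median ratio in TCDD replicate 1 is set beside that of all transcripts of the class, members included. For members of up to 1000 bases the median TPM ratio was 1.09, against 0.929 for all transcripts of that length. For those of 1000 to 2000 bases it was 0.894 against 0.791, and for those of 2000 to 4000 bases 0.851 against 0.649. These ratios also rest on the Control libraries that chose the members, so they are a description, and the part of length was not tested.

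The members were shorter than other transcripts. Their median length was 1403 bases, with quartiles at 760 and 1889, against a median of 2017 and quartiles at 1291 and 3171 over the 12808 transcripts. Of the 2092 transcripts of up to 1000 bases, 39 (1.86%) were members. The share was 1.16% (49 of 4224) at 1000 to 2000 bases, 0.484% (22 of 4544) at 2000 to 4000 bases and 0.154% (3 of 1948) above that. Ratios to Control of all transcripts also fell with length for each compound. For APAP, the class of up to 1000 bases was thus the least lowered in TPM when all transcripts are taken. With TCE the median TPM ratio was 1.19 over transcripts of up to 1000 bases and 0.910 over those above 4000 bases, with TCDD it was 1.18 and 0.923, with CCl4 1.03 and 0.809, and with APAP 0.894 and 0.576. For the longest transcript, length minus effective length, which reflects fragment length, was 177 to 186 bases in Control, 180 to 184 with APAP, 180 to 186 with CCl4, 186 to 190 in TCDD replicates 2 to 4 and 184 to 191 with TCE. The part of these trends in the choice of members was not tested.

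Within the members the median APAP ratio was 0.379 for the 39 members of up to 1000 bases, 0.421 for the 49 of 1000 to 2000 bases, 0.484 for the 22 of 2000 to 4000 bases and 0.572 for the 3 above that. With TMM the medians were 0.536, 0.601, 0.691 and 0.812. The rule limited these ratios to 0.75 in TPM, so they are a description of the members and are not set against other transcripts.

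**Figure D3:**
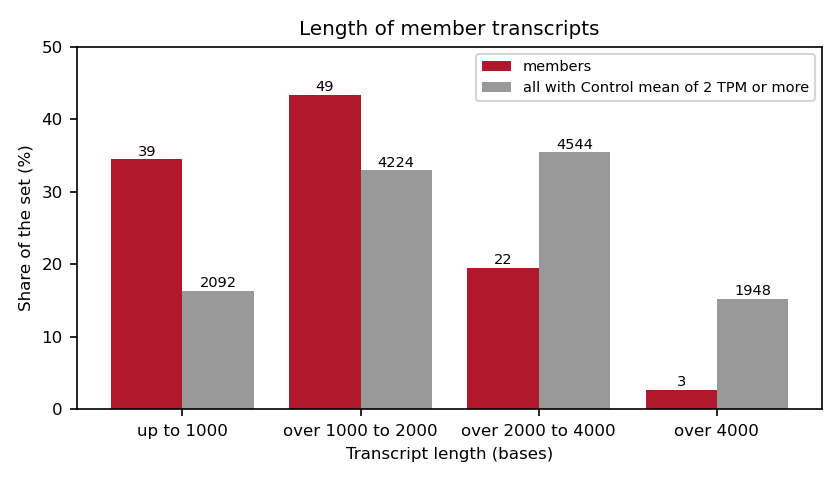
Bars give the share of each set, in percent, in 4 classes of transcript length, for the 113 members and for the 12808 transcripts with a Control mean of 2 TPM or more; numbers above the bars are counts of transcripts. Members are more often of up to 1000 bases (34.5% against 16.3%) and less often over 4000 bases (2.65% against 15.2%).

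The single members described next were chosen as those with the highest smallest pollutant ratio and those with the lowest APAP ratio among members with at least 20 estimated counts in the Control mean. ENSRNOT00000028490.2, of 627 bases, was the 1 member with all 3 pollutant ratios at 2 or more. It stood at 41.6, 51.0 and 50.3 TPM in Control, 98.9, 103 and 91.4 with CCl4, 119, 130, 126 and 103 with TCE, and 14.9, 14.8, 14.9 and 15.7 with APAP. In TCDD replicates 1 to 4 it stood at 69.9, 147, 122 and 50.2 TPM. CCl4 and TCE lay apart from Control, and APAP lay below it with a narrow spread. TCDD replicate 4, however, was within the range of the Control libraries. The TPM ratios were 2.05 with CCl4, 2.24 with TCDD, 2.51 with TCE and 0.316 with APAP, and with TMM they were 2.16, 2.00, 2.27 and 0.451. All its counts were whole numbers, which leaves no sign of reads shared with other transcripts.

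ENSRNOT00000005428.7, of 1788 bases, was low in level and varied between libraries. It stood at 3.32, 3.67 and 3.63 TPM in Control, 4.99, 5.18 and 8.10 with CCl4, 6.15, 6.97, 8.56 and 6.58 with TCE, and 1.73, 1.39, 0.601 and 1.24 with APAP. In TCDD replicates 1 to 4 the values were 16.8, 6.64, 4.77 and 10.8 TPM. All exposed libraries other than those of APAP lay above Control. The highest was TCDD replicate 1, which the choice did not use. That library stood apart in depth and in transcripts above 0, so its value is not taken as support for the others. The counts behind these values were 47.8 to 53.4 in Control and 8.73 to 27.2 with APAP.

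ENSRNOT00000074435.1, of 1293 bases, had the lowest APAP ratio, 0.0300. It stood at 5.06, 4.32 and 4.62 TPM in Control, 7.95, 7.55 and 7.28 with CCl4, and 6.98, 8.80, 6.84 and 7.38 with TCE. With APAP the estimated counts were 3, 0, 1 and 2, against 52, 39 and 47 in Control. In TCDD replicates 1 to 4 the values were 4.92, 8.02, 6.77 and 7.12 TPM. The pollutant libraries, other than TCDD replicate 1, lay above Control and spanned 6.77 to 8.80 TPM, and the APAP libraries were near 0.

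ENSRNOT00000089279.1, of 628 bases, was listed at 0 in 2 of the 4 APAP libraries. It stood at 22.2, 22.4 and 22.1 TPM in Control, 27.7, 24.1 and 31.9 with CCl4, 32.9, 40.2, 32.9 and 44.6 with TCE, and 0, 3.36, 1.66 and 0 with APAP. TCDD replicates 1 to 4 stood at 24.1, 52.2, 39.9 and 36.2 TPM. The Control libraries were close together and below all pollutant libraries, with CCl4 replicate 2 and TCDD replicate 1 nearest to them. Of these transcripts, ENSRNOT00000028490.2 alone had whole counts in all libraries; the others include reads shared with other transcripts, which can move between similar sequences.

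**Figure D4:**
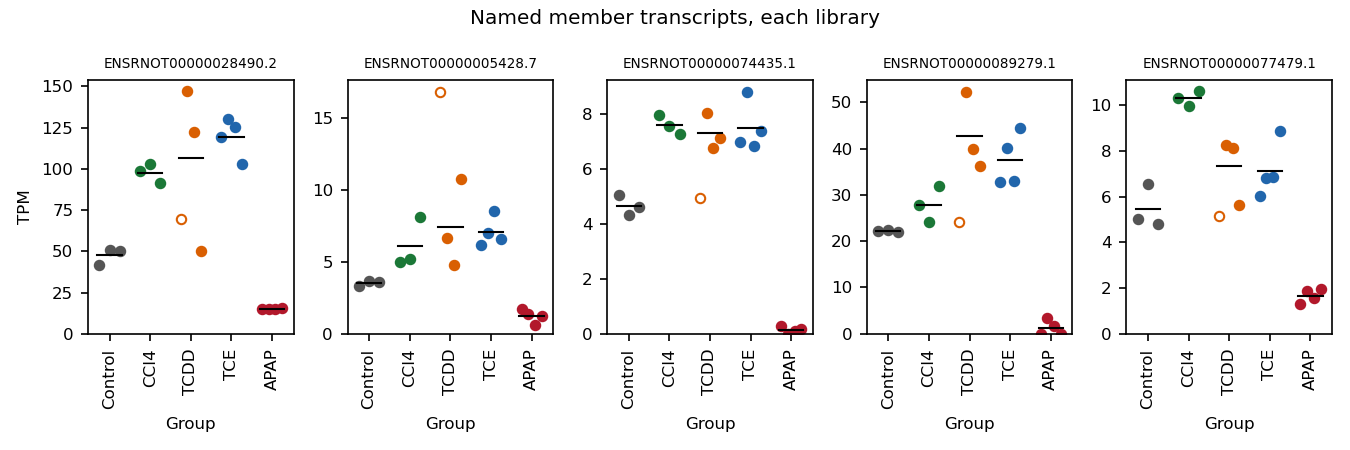
TPM of the 5 named members in each library, by group; lines give group means, and the open point is TCDD replicate 1, left out of the TCDD mean. APAP is the lowest group in each panel, and TCDD is the most spread group for ENSRNOT00000028490.2, from 50.2 to 147 TPM in replicates 2 to 4.

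Pairs of pollutants were then set against each other in contrasts that leave out Control. The fit itself held 17 libraries, so Control and APAP libraries entered the low-count filter, the TMM factors and the estimate of spread. These contrasts rest on the group means that chose the members. The rule set the same limit for each pollutant in TPM, while the median TPM ratio over all 12808 transcripts was 0.931 with CCl4, 1.06 with TCDD and 1.06 with TCE. Once TMM levels the groups, the rule therefore favours transcripts that lean towards CCl4, and the direction of the members' differences from CCl4 is a description only. All 113 members were among the 16270 transcripts kept by the low-count filter. Between CCl4 and TCE, 1 member was called higher with CCl4 (edgeR's quasi-likelihood F test with p adjusted by Benjamini-Hochberg over all transcripts, threshold 0.05), against 1.29% of all tested, and 0 lower, against 0.596%. At an unadjusted p under 0.05 there were 13 of 113 members, all higher with CCl4, against 2269 of 16270 transcripts (13.95%). The rule asked for a raised mean with each pollutant, which favours transcripts that are alike in the 3 groups. This count is therefore a description, and nothing is read from it. DESeq2 called 5 members and limma voom 11. The share of all transcripts that each of these methods called is not given here, so no excess is read from their counts. The median log2 difference was 0.11 over the members and -0.01 over all tested, a shift in the direction that the choice favours. The part of the choice in it was not tested.

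The called member was ENSRNOT00000077479.1, of 4212 bases, named after its values were seen. It stood at 10.3, 9.97 and 10.6 TPM with CCl4, 6.03, 6.80, 6.87 and 8.85 with TCE, and 5.02, 6.55 and 4.81 in Control. TCDD replicates 1 to 4 stood at 5.14, 8.25, 8.14 and 5.63 TPM, and APAP at 1.32, 1.85, 1.55 and 1.96. The CCl4 libraries lay above all other libraries, while TCE and TCDD overlapped with Control. The log2 difference between CCl4 and TCE was 0.71 (SE 0.14; adjusted p = 0.018 in edgeR), with a 95% interval of 0.40 to 1.02. It did not pass without CCl4 replicate 1, 2 or 3 (edgeR adjusted p = 0.0719, 0.0981 and 0.0689) or without TCE replicate 1, 2 or 3 (0.058, 0.0518 and 0.0612). Against TCDD it was higher with CCl4 by a log2 difference of 0.67 (SE 0.16; adjusted p = 0.0536 in edgeR).

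Between CCl4 and TCDD the edgeR test called 0 members, against 0.787% of all tested higher with CCl4 and 0.203% lower. At an unadjusted p under 0.05 there were 11 of 113 members, 10 of them higher with CCl4, against 1859 of 16270 transcripts (11.4%). Again the choice shapes this count, and nothing is read from it. DESeq2 called 1 and limma voom 12. The median log2 difference was 0.09 over the members and 0.00 over all tested. The choice favours this direction too, and its part in the shift was not tested. Without TCDD replicate 4 the edgeR test called 2 members here and 6 between CCl4 and TCE. For these alternatives too the share of all transcripts called is not given here.

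Between TCDD and TCE the edgeR test called 0 members and 0% of all tested in either direction, with 0 members at an unadjusted p under 0.05, against 412 of 16270 transcripts (2.53%). DESeq2 and limma voom called 0 members. The share of all transcripts called by these methods is not given for this pair either, so nothing is read from these counts. The median log2 difference over the members was 0.01, with a range of -0.30 to 0.51. The 95% interval of the difference lay within 1 log2 unit of 0 for 102 of 113 members between TCDD and TCE, 93 between CCl4 and TCDD and 97 between CCl4 and TCE. Over all tested transcripts with an interval the shares were 76.1%, 71.9% and 73.1%. The 16270 tested include transcripts below the Control floor of the rule, and the rule asked for a raised mean with each pollutant. The shares are therefore not like for like, and no likeness between compounds is read from them. The interval lay wholly beyond 1 unit for 0 members in each pair. A smaller difference between compounds was not detectable for members with wide intervals.

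**Figure D5:**
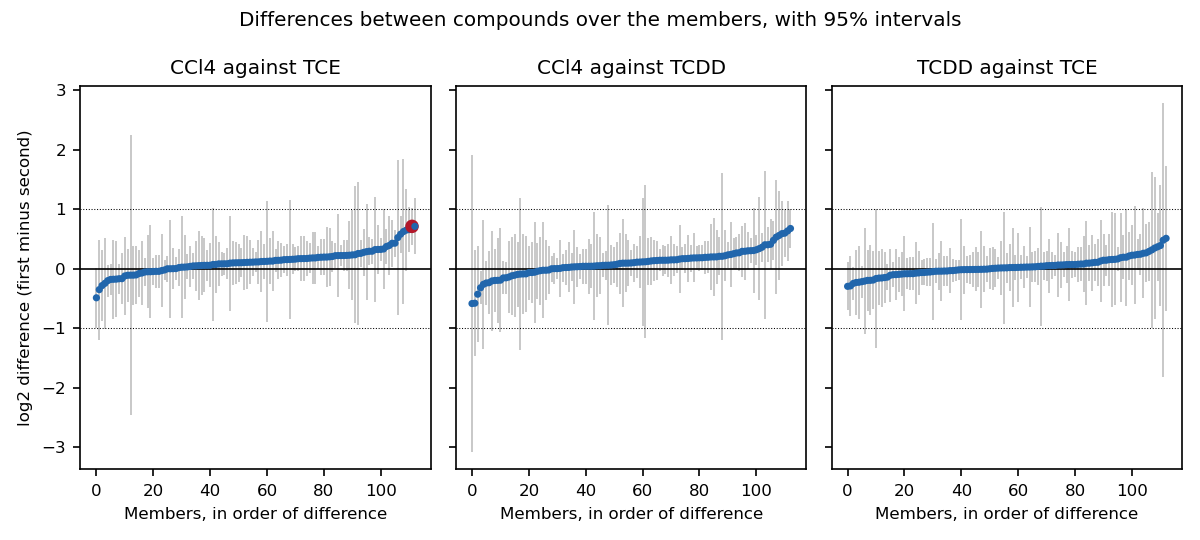
Each point is 1 of the 113 members, in order of its log2 difference between 2 compounds, with its 95% interval not adjusted for the number of members; dotted lines mark 1 log2 unit. The larger red point between CCl4 and TCE is ENSRNOT00000077479.1, and the points between TCDD and TCE range from -0.30 to 0.51.

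Which transcripts were members depended on single libraries. With each of the 17 libraries used by the rule left out in turn, 97 to 155 transcripts met it. Of the 113, only 37 met it in each of these 17 cases. Leaving out the Control libraries in turn kept 56 of the 113 throughout, against 68 for CCl4, 80 for TCE, 86 for TCDD and 109 for APAP. With TCDD replicate 1 added to the TCDD mean 74 transcripts met the rule, 73 of them among the 113.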

How the data were processed

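RNA was measured in 18 libraries. The deposited tables list, per transcript, length, effective length, estimated counts and TPM, which the authors made with kallisto 0.43 per the submitters' processing notes. Neither build nor annotation is given in the sources used here. Reads that match several transcripts are shared among them, so values of similar transcripts are uncertain: for 45 of the 113 members (39.8%) the count was whole in each library, to a tolerance of 0.000001, against 42.4% of the 12808 transcripts at 2 TPM or more.

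The rule was applied to the deposited TPM, with TCDD replicates 2 to 4. Estimated counts were rounded, filtered with filterByExpr and fitted by group in 17 libraries (edgeR 4.0.16 in R 4.3.3, TMM factors, robust quasi-likelihood), without TCDD replicate 1. The 3 pairs of pollutants were tested, with p-values adjusted over all transcripts of a pair. Standard errors were derived from the log2 difference and the F statistic. The procedure was tested on simulated data. Alternatives were DESeq2 1.42.0, limma 3.58.1 voom, other scalings, filters and thresholds, a replicate block, and each replicate left out.

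The members, tests and lists were chosen with earlier results of these data known. Single members were named by a rule: 2 with the highest smallest pollutant ratio and 2 with the lowest APAP ratio, each with a Control mean of 20 or more estimated counts. Marker lists could not be applied without gene names. Libraries of 1 group differed by more than sampling noise, with chi-square per degree of freedom of at least 4.38, so each was counted once. Depth limits low members: the median member had 74 estimated counts in TCDD replicate 1, 42 to 52 in the APAP libraries and 111 to 167 in the others.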

Additional observations from a re-analysis of the deposited data

Results flagged for a closer look

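A library far from the other 3 of its group was looked for in 27 sets of 4 values and found in 3; by chance about 5% of sets would show one. In TCDD replicate 1 the median level over the 113 members was 9.87 TPM, against 16.2 to 16.9 TPM in TCDD replicates 2 to 4. The same library listed 27416 transcripts above 0, against 19470 to 19592 in the other TCDD libraries. With APAP, ENSRNOT00000028490.2 stood at 15.7 TPM in replicate 4 and at 14.8 to 14.9 TPM in the other 3 libraries, a small gap within a narrow range.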

How the results depend on the processing

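The number of transcripts meeting the rule was 113. It was 44 with CPM and TMM factors, 74 with TCDD replicate 1 included and 12 with a ratio of 1.5 for the pollutants, and stayed within 1.5 times of 113 under the other settings, from 88 with a Control floor of 5 TPM to 162 with APAP and Control allowed to overlap. Without each library it was 97 to 155. Between CCl4 and TCE the edgeR test called 1 member; it called 3 with only the 2 groups in the fit, 5 at an adjusted p under 0.1, and 0 to 6 without each library, while DESeq2 called 5 and limma voom 11. Between CCl4 and TCDD the count was 0; it was 1 with all 18 libraries, 1 at an adjusted p under 0.1, 1 with DESeq2, 12 with limma voom and 0 to 2 without each library. Between TCDD and TCE it was 0 under each setting run, also without each library. For the alternative settings the share of all transcripts called is not given here, so these counts show only how the calls move. With TMM the median ratios over the members were 1.43 for CCl4, 1.32 for TCDD, 1.28 for TCE and 0.607 for APAP; without each library in TPM they were 1.34 to 1.37, 1.41 to 1.47, 1.39 to 1.45 and 0.416 to 0.467. The median length was 1400.5 bases for members at 5 TPM or more, and the median over all 16270 tested transcripts was 2149 bases. The causes of these shifts were not tested.

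Same-numbered libraries had a median correlation of 0.000025 by title number (range -0.168 to 0.125, 29 pairs), against 0.00345 for different numbers. By the number in the deposited table's name it was -0.0147 (-0.203 to 0.141), against 0.00719. A library correlated best with its own number in 7 and 6 of 17 cases. The number of such cases to expect without pairing is not given here, so no absence of pairing is read from these values. With a replicate block by title number 2 members were called between CCl4 and TCE and 2 between CCl4 and TCDD. With the block by table number these counts were 0 and 0, and ENSRNOT00000077479.1 had an edgeR adjusted p of 0.0517 between CCl4 and TCE. The share of all transcripts called with a block is not given here either.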

Other observations

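Some members had levels that jumped between libraries of 1 group, and all of those described here had counts that were not whole and so included shared reads. A member of 2310 bases stood at 16.5, 2.29 and 2.07 TPM in the 3 Control libraries, at 2.26, 26.8 and 0.500 TPM with CCl4, and at 2.09, 27.4, 17.4 and 2.35 TPM with TCE. Its group means met the rule although its libraries overlapped between Control and each of these groups. A member of 417 bases stood at 110 TPM in TCDD replicate 1 and at 8.88 to 37.5 TPM in the other 17 libraries. A member of 1186 bases was at 8.45 to 11.0 TPM in Control and near 0 in TCDD replicate 1 and APAP replicate 4. These members were chosen after their values were seen.

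A pair of members of 1503 bases had identical values in all 18 libraries, 8.37 to 10.9 TPM in Control and 3.04 to 4.33 TPM with APAP, and count as 2 of the 113 although they carry 1 measurement. The most abundant member, of 702 bases, stood at 558 to 640 TPM in Control, 874 to 1020 TPM with CCl4 and 384 to 474 TPM with APAP.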
